A study of Rattus norvegicus with 30 samples.

Results

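The genes described are the aryl hydrocarbon receptor gene Ahr, its dimer partner Arnt, and the feedback repressor genes Ahrr and Tiparp. They were chosen by symbol in the platform annotation and are 4 of the 14217 genes tested. Primary hepatocytes from male Sprague Dawley rats, bought frozen, were thawed, plated on collagen under a thin Matrigel layer, and dosed on the third day of culture. The 6 groups were a vehicle of 1% DMSO, 1 µM beta-naphthoflavone and 100 µM beta-naphthoflavone, each harvested at 24 and at 48 h. The labels state that the chemical stocks were also made up in DMSO. Each group held 5 separate wells with 1 array each, 30 arrays in all. Since no label ties a well to an animal, the spread behind each p-value is that between wells. RNA was biotin-labelled and read on Affymetrix rat arrays, on which a probe set is a group of short probes for 1 transcript.

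Beta-naphthoflavone is a synthetic flavone that binds the aryl hydrocarbon receptor. Without a ligand the receptor, a basic helix-loop-helix PAS transcription factor, is held in the cytosol by chaperones. With a ligand it enters the nucleus, pairs with the ARNT protein and binds xenobiotic response elements near its target genes, of which Cyp1a1 is the classic liver example. ARNT is also the partner of the hypoxia-inducible factors. AHRR is a receptor-like protein that competes for ARNT and represses these targets. TIPARP is a mono-ADP-ribosyltransferase that modifies the receptor and lowers its activity. Both repressor genes are known receptor targets, which makes each a negative feedback loop.

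The upstream windows of the repressor genes are shown because the receptor's own element lies upstream of its known targets. Sequences are RefSeq's, from the GRCr8 rat assembly, and cover the 250 bases before the annotated gene start, 5′ to 3′ along the gene's strand. All 4 genes matched by symbol. Capitals mark each copy of GCGTG, the core of the element, on either strand; on the opposite strand it reads CACGC. The Tiparp window lies at chr2:152063519-152063768 on the plus strand and the Ahrr window at chr1:30821969-30822218 on the plus strand.
Tiparp: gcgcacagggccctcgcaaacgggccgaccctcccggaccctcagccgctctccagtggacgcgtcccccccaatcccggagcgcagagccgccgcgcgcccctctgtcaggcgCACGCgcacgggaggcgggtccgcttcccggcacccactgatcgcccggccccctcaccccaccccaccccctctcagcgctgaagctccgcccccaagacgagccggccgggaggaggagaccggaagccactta
Ahrr: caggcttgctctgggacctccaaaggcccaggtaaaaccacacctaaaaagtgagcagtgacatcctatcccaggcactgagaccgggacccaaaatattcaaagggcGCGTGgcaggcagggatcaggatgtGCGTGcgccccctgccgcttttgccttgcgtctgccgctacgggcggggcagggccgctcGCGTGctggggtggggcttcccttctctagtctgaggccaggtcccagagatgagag

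The Ahrr window held 3 copies of GCGTG, all on the gene's strand, at 142 to 138, 117 to 113 and 57 to 53 bases before the gene start. The copy nearest the start was part of the longer form TNGCGTG, at 59 to 53 bases before the start. The Tiparp window held 1 copy, on the opposite strand at 136 to 132 bases before the start, and no TNGCGTG. Arnt (chr2:185686453-185686702, plus strand) held 1 copy on its own strand, and Ahr (chr6:57998902-57999151, minus strand) held none. Of 33465 rat promoter windows of this length, 25.9% held at least 1 GCGTG on either strand, 2.58% held at least 3, and 4.09% held TNGCGTG, which contains GCGTG. A match of letters is a description of the window and shows no binding.

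Trimmed means of the arrays lay between 1500.5 and 1500.6 signal units, and median signals between 336.51 and 427.92. No pair of arrays held identical values. All 9 measured hepatocyte markers, such as albumin (Alb), were brighter than the median gene, and their summed signal was 307170 to 522310. The 11 stellate, 8 endothelial and 7 lymphocyte markers were each dimmer than the median gene. Kupffer cell markers (5 of 10 dimmer than the median gene) summed to 15167 to 28787, and cholangiocyte markers (5 of 6 dimmer) to 9385.9 to 13557. In such bulk RNA, fewer cells of a type and less RNA per cell cannot be told apart.

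Of the 4 genes, only Tiparp differed from vehicle in the fit over all genes. At 100 µM it rose, by 3.09-fold at the earlier time and 2.42-fold at the later. At 1 µM Tiparp did not pass the test on its main probe set at either time. Ahr, Arnt and Ahrr passed in none of the 11 contrasts between doses and times, and an unadjusted p under 0.05 was reached in 1 of them by Arnt, in 1 by Ahrr and in 0 by Ahr. The test was limma on log2 signal, with Benjamini-Hochberg adjustment over all genes and a threshold of 0.05. So 1 of 4 members was called at 100 µM and 24 h, where 21.1% of all genes were called and 10.7% were called higher. It was likewise 1 of 4 at 100 µM and 48 h, where 17.4% of all genes were called and 8.79% were called higher. By limma 0 of 4 members were called at 1 µM, where 4.3% of all genes were called at 24 h and 0.809% at 48 h; at an unadjusted p under 0.05 it was 1 of 4 (Tiparp) at 24 h and 0 of 4 at 48 h.

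The members differed widely in how steady their signal was. Ahr, Arnt and Ahrr lay at percentiles 32.8, 16.6 and 12 of the genes' mean log2 signal, and Tiparp at 82.3. Probe sets differ in how well they bind, so these percentiles do not rank the amounts of the transcripts. The pooled SD within groups, in log2 units, was 0.13 for Tiparp, 0.28 for Ahr, 0.88 for Arnt and 1.25 for Ahrr, against a median of 0.22 over all genes. Of all genes, 97.4% had a smaller SD than Ahrr and 87.7% a smaller one than Arnt. Every Arnt and Ahrr value was below the lowest median signal of any array, and detection calls were not used here.

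**Figure D1:**
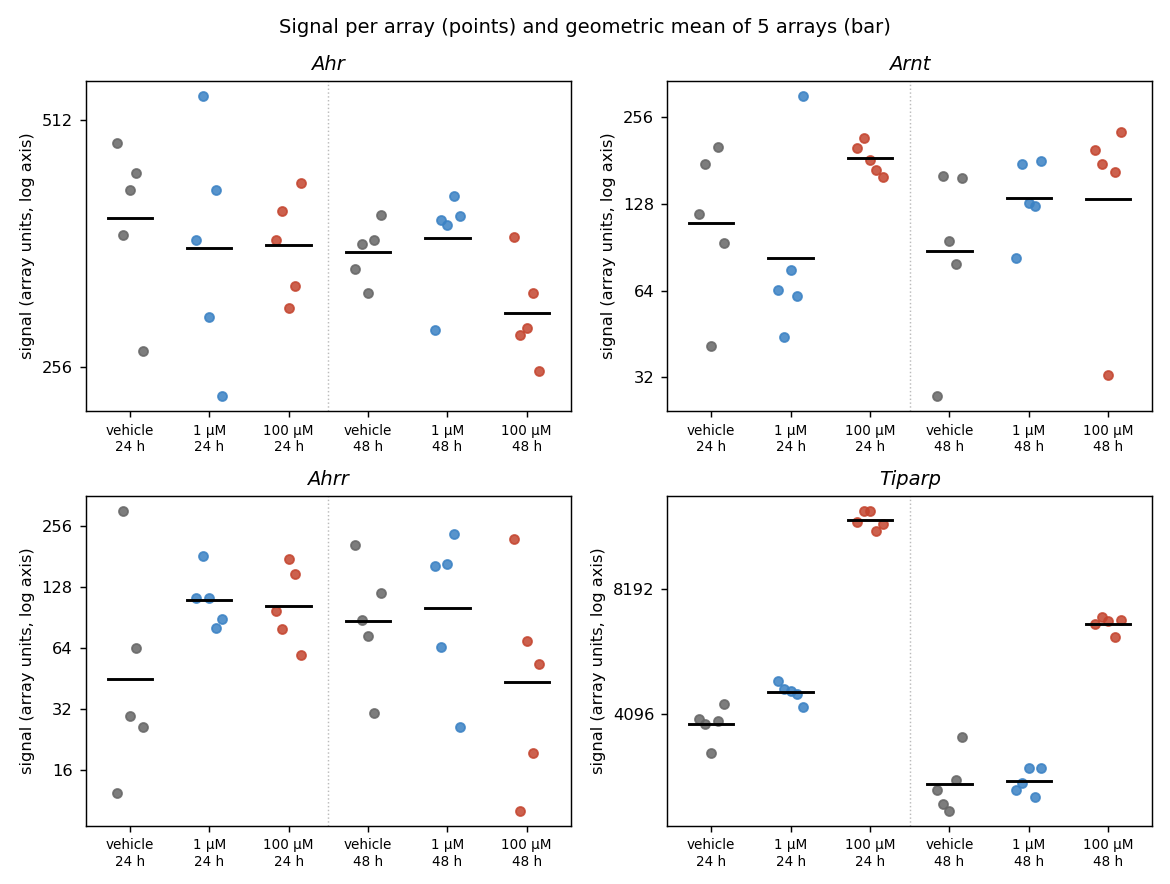
Signal of the main probe set of each gene on every array (points, log axis in array units), with the geometric mean of the 5 arrays of a group (bar), for vehicle, 1 µM and 100 µM beta-naphthoflavone at 24 and 48 h. Tiparp at 100 µM lies above every other array of its time, from 11248 at 24 h and from 6292.5 at 48 h. Ahr, Arnt and Ahrr overlap between all dose groups of a time.

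Ahr, the receptor itself, was read by 2 probe sets. On the brighter, the 24 h vehicle arrays gave signals of 481, 371, 421, 442 and 268. At 1 µM and 24 h they were 366, 548, 295, 421 and 236, and at 100 µM 366, 397, 303, 321 and 429.8. The 3 groups overlapped fully, with the lowest and highest Ahr values of the study both in the 1 µM group. At 48 h the vehicle arrays gave Ahr signals of 337, 362, 315, 366 and 392. The 1 µM arrays gave 284, 387, 381, 414 and 392, and the 100 µM arrays 369, 280.4, 285, 315 and 253. Here 4 of the 5 Ahr values at 100 µM were below every vehicle value, 1 of them barely (314.88 against 314.94), and the first array lay within the vehicle range.

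The Ahr ratio to vehicle at 100 µM had a 95% interval of 0.706 to 1.22 at 24 h (log2 change -0.11, SE 0.19; limma adjusted p = 0.774). At 48 h that interval was 0.643 to 1.11 (log2 change -0.24, SE 0.19; limma adjusted p = 0.462). At 1 µM the Ahr ratio had intervals of 0.701 to 1.21 at 24 h and 0.794 to 1.37 at 48 h, with adjusted p = 0.823 and 0.948. The dimmer Ahr probe set ranged from 117 to 435 over the 30 arrays. It gave log2 changes at 100 µM of -0.26 at 24 h and -0.21 at 48 h, with SE 0.31 and adjusted p = 0.701 and 0.795. Time in culture gave Ahr log2 changes from 24 to 48 h of -0.14 in vehicle, 0.04 at 1 µM and -0.27 at 100 µM. None of these passed, with limma adjusted p = 0.726, 0.936 and 0.402, and the dimmer probe set had the opposite sign in vehicle and at 100 µM.

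Arnt, the partner needed for DNA binding, had 1 probe set and a dim, uneven signal. The 24 h vehicle arrays gave 118, 176, 41.2, 201 and 93.6. At 1 µM and 24 h the Arnt signals were 64.3, 44.1, 75.6, 61.4 and 302, and at 100 µM 199.7, 216.5, 181, 168 and 159. The 100 µM arrays were the tightest group, the highest being 1.37 times the lowest, and lay within the vehicle range apart from the highest. The 1 µM arrays were low except for the fifth. At 48 h the Arnt signals were 27.6, 160.2, 94.8, 79.4 and 157 in vehicle. They were 82.8, 175, 129, 126 and 179.8 at 1 µM, and 196, 176, 32.7, 165 and 227 at 100 µM. The third 100 µM array of 48 h was far below the others of its group, and the first vehicle array of 48 h was the lowest of its own.

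Against vehicle, the Arnt ratio had 95% intervals of 0.358 to 1.6 at 1 µM and 0.791 to 3.53 at 100 µM at 24 h. At 48 h they were 0.72 to 3.21 and 0.719 to 3.21. All but the first of these intervals reach above 3-fold, and the limma adjusted p values were 0.772, 0.38, 0.722 and 0.526 in the same order. The largest difference of Arnt was between the doses at 24 h, where 100 µM was 2.21-fold above 1 µM (log2 1.14, SE 0.53; unadjusted p = 0.0386, limma adjusted p = 0.23). Without the fifth 1 µM array it was 3.05-fold, with a limma adjusted p of 0.05004. That was the smallest of 10 left-out fits, whose log2 differences ran from 0.91 to 1.61 with adjusted p up to 0.464. The same dose difference of Arnt at the later time was -0.00093 log2 units (95% interval -1.08 to 1.08). Over time Arnt did not pass in any treatment, with log2 changes of -0.32, 0.68 and -0.46 in vehicle, at 1 µM and at 100 µM (SE 0.53).

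Ahrr, the receptor-like repressor whose upstream window holds 3 core elements, was the dimmest and most variable member. In the 24 h vehicle group its signals were 12.3, 304, 29.5, 64.0 and 26.1. At 1 µM and 24 h they were 112.5, 182, 113, 80.0 and 89.0, and at 100 µM 97.1, 79.8, 176, 148 and 58.8. Of the 5 vehicle arrays, 4 lay below all 1 µM arrays, and the remaining vehicle array was the brightest Ahrr value of the study. At 48 h the Ahrr signals in vehicle were 207, 88.4, 73.0, 30.4 and 119. The 1 µM arrays gave 162, 65.0, 166, 233 and 25.9, and the 100 µM arrays 220.1, 10.1, 69.0, 19.4 and 53.6. All 3 groups of 48 h overlapped, and the highest array of the 100 µM group was 21.9 times its lowest.

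The Ahrr change at 24 h was 2.46-fold at 1 µM, with a 95% interval of the ratio of 0.866 to 6.98 (log2 1.30, SE 0.74; limma adjusted p = 0.385). At 100 µM and 24 h it was 2.3-fold, with an interval of 0.81 to 6.54 (log2 1.20; limma adjusted p = 0.291). Without the bright second vehicle array, the 100 µM change of Ahrr was 3.71-fold, with a limma adjusted p of 0.05659. That was the smallest of 10 left-out fits, whose log2 changes ran from 0.73 to 1.89 with adjusted p up to 0.588. At 48 h the Ahrr log2 change was 0.23 at 1 µM and -0.98 at 100 µM, with adjusted p = 0.949 and 0.437. The 100 µM effect differed between the times by -2.19 log2 units (SE 1.04; unadjusted p = 0.0446, adjusted p = 0.418), which did not pass. The doses did not differ beyond the spread, with Ahrr log2 differences of 100 µM from 1 µM of -0.10 at 24 h and -1.21 at 48 h (adjusted p = 0.973 and 0.331). Induction of Ahrr of the size seen for Tiparp lies within the 24 h intervals, so neither its presence nor its absence could be read at this precision.

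**Figure D2:**
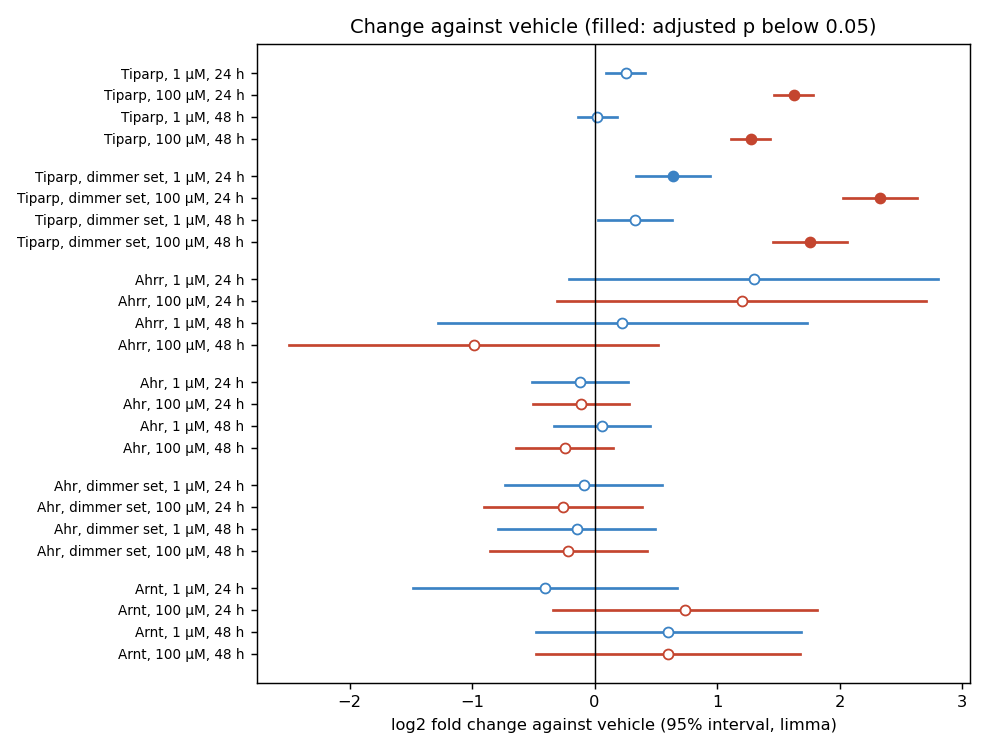
Log2 change against vehicle with its 95% interval from limma (x axis) for each probe set of the members at each dose and time (rows); filled points passed an adjusted p of 0.05. The filled points are 1.63 and 1.28 for Tiparp at 100 µM, and 0.64, 2.33 and 1.76 for its dimmer probe set at 1 µM and 24 h and at 100 µM at both times. The intervals of Ahrr and Arnt are several times wider.

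Tiparp, the mono-ADP-ribosyltransferase of the feedback loop, had the clearest dose response of the members. At 24 h its signals were 3998.7, 3877.2, 3316.5, 3940.5 and 4338.1 in vehicle. They were 4927.5, 4701.2, 4662.9, 4591.3 and 4264.9 at 1 µM, and 11841, 12574, 12590.0, 11248 and 11685 at 100 µM. Every 100 µM array of 24 h was above all other arrays of the study. At 1 µM the lowest Tiparp value was just below the highest vehicle value, so the groups overlapped by 1 array each. At 48 h the vehicle Tiparp signals were 2696.8, 2501.7, 2408.8, 2860.3 and 3621.8. The 1 µM arrays gave 2696.6, 2807.7, 3042.5, 2603.6 and 3048.5, and the 100 µM arrays 6728.8, 7017.4, 6845.1, 6292.5 and 6888.3. Vehicle and 1 µM overlapped fully at this time, and both lay below all 100 µM arrays.

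At 100 µM the 24 h Tiparp change was 3.09-fold (95% interval 2.77 to 3.44; log2 1.63, SE 0.08; limma adjusted p = 5.02e-16). It ranked 48 by fold and 5 by p among 14217 genes. At 48 h it was 2.42-fold (interval 2.17 to 2.7; log2 1.28, SE 0.08; limma adjusted p = 9.89e-14), ranking 110 by fold and 23 by p. Groups that did not overlap, with the treated arrays higher, were found for 6.89% of all genes at 24 h and 6.66% at 48 h. At 1 µM the Tiparp change was 1.19-fold at 24 h (interval 1.07 to 1.33; limma adjusted p = 0.0581) and 1.02-fold at 48 h (interval 0.911 to 1.13; limma adjusted p = 0.949). The 24 h value at 1 µM lay close to the threshold, with an unadjusted p of 0.00269: it passed with an adjusted p of 0.038 after quantile normalization, 0.0324 with dim genes left out, and 0.0378 without the fifth vehicle array.

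Cell type markers also moved at 100 µM. Of 9 hepatocyte markers, 3 fell at 24 h and 6 at 48 h, where 10.4% and 8.62% of all genes were called lower. The summed hepatocyte signal overlapped vehicle at 24 h (398300 to 519430 against 458420 to 522310) and lay below it at 48 h (307170 to 379680 against 400780 to 481100). At 24 h the Kupffer cell sum was 25005 to 28787 against 21750 to 26077 in vehicle. Of its 10 markers 1 rose, where 10.7% of all genes were called higher. Their median log2 change was -0.0056, against 0.04 over all genes, so the typical marker did not rise. At 1 µM and 24 h the Kupffer cell sum was 26148 to 28106, above all vehicle arrays, with 0 of 10 called (4.3% of all genes were called). At 48 h the Kupffer cell sum was 15167 to 16294 against 18251 to 20320 in vehicle (2 of 10 markers fell), and the cholangiocyte sum 9385.9 to 10031 against 11839 to 13557 (1 of 6 fell). The median log2 change of the cholangiocyte markers there was 0.12, against 0.02 over all genes, so their lower sum does not describe the typical marker. The part of these markers in the Tiparp rise was not tested.

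The doses themselves differed for Tiparp. The 100 µM arrays were 2.59-fold above the 1 µM arrays at 24 h (interval 2.32 to 2.89; limma adjusted p = 1.56e-13). At 48 h they were 2.38-fold above (interval 2.13 to 2.66; limma adjusted p = 3.15e-13). In these dose comparisons 7.72% of all genes were called at 24 h and 14% at 48 h, and Tiparp was again the 1 member of 4 that was. By p it ranked 2 at 24 h and 12 at 48 h.

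Tiparp also fell with time in culture in every treatment. From 24 to 48 h it fell 1.39-fold in vehicle (log2 -0.48, SE 0.08; limma adjusted p = 3.11e-05), where 17.2% of all genes were called (8.6% lower) and 1 vehicle array of 48 h lay within the 24 h range. The vehicle fall had an exact permutation p of 0.0159, which did not pass once 36 such tests were allowed for. At 1 µM it fell 1.63-fold (limma adjusted p = 5.7e-08; 13.5% of all genes called, 6.72% lower), and at 100 µM 1.77-fold (limma adjusted p = 1.43e-09; 17.1% called, 8.26% lower). Tiparp was the 1 member of 4 called in each of these. The 48 h effect of 100 µM minus its 24 h effect was -0.35 log2 units (SE 0.11), which did not pass (unadjusted p = 0.00324, limma adjusted p = 0.144; 0.788% of all genes called). For 1 µM the effects differed by -0.23 (SE 0.11; limma adjusted p = 0.527; 0.0914% of all genes called). Summed Kupffer cell markers were also lower at 48 h, at 18251 to 20320 against 21750 to 26077 in vehicle and 15167 to 16294 against 25005 to 28787 at 100 µM. Among them Clec4f, a Kupffer cell lectin, fell 1.61-fold in vehicle and 2-fold at 100 µM from 24 to 48 h (limma adjusted p = 0.0445 and 0.00283). Hepatocyte markers moved as well: 5 of 9 fell with time in vehicle and 7 of 9 at 100 µM, and 0 rose by limma or at an unadjusted p under 0.05. The part of these markers in the Tiparp change was not tested.

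In order of mean signal ± SD (n = 5), Tiparp was at 11988 ± 585 at 100 µM and 24 h, then 6754 ± 278 at 100 µM and 48 h. Next came 4630 ± 240 at 1 µM and 24 h (4629.6) and 3894 ± 369 in vehicle at 24 h. Last were 2839.8 ± 201 at 1 µM and 48 h and 2818 ± 482 in vehicle at 48 h. Neighbours in this order whose ranges overlapped were 1 µM and vehicle at 24 h, by 1 array each, and 1 µM and vehicle at 48 h; the remaining neighbours did not overlap.

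A second, dimmer probe set for Tiparp gave larger changes. Its vehicle signal at 24 h was 1023 ± 166 (n = 5), against 1591 ± 242 at 1 µM and 5135 ± 654 at 100 µM. After 48 h this probe set read 679.9 ± 186 without the ligand, 829.8 ± 59.2 with 1 µM and 2241 ± 307 with 100 µM. This probe set rose 1.56-fold at 1 µM and 24 h (limma adjusted p = 0.0149), with no overlap between the groups. Of all genes, each at its brightest probe set, 2.35% also showed no overlap in the upward direction. The dimmer Tiparp probe set rose 5.04-fold at 100 µM and 24 h and 3.38-fold at 100 µM and 48 h (limma adjusted p = 6.73e-13 and 2.21e-10). These adjusted p values are from a separate fit of all probe sets except controls. The 1 µM change at 48 h, 1.26-fold, did not pass (limma adjusted p = 0.489).

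The Tiparp probe sets were set against each other within each array. At 100 µM and 24 h the dimmer changed by 0.71 log2 units more than the brighter (two-sided exact permutation p = 0.00794, the smallest that 5 against 5 arrays can give; 0.0318 adjusted over 4 comparisons). At 100 µM and 48 h the extra change was 0.48 (exact permutation p = 0.135; 0.18 adjusted). At 1 µM it was 0.39 at 24 h (exact permutation p = 0.0476; 0.0952 adjusted) and 0.31 at 48 h (exact permutation p = 0.341). Both probe sets rose at 100 µM at both times.

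The receptor's target enzymes were read beside Tiparp, and 8 of 11 listed genes had a single-symbol probe set. Of these, 6 rose and 1 fell at 100 µM and 24 h, and 5 rose and 1 fell at 48 h. At 1 µM 4 rose at 24 h and 3 at 48 h. Of all genes, 1.91% and 0.288% were called higher at 1 µM at these times. At 100 µM 10.7% were called higher and 10.4% lower at 24 h, and 8.79% higher and 8.62% lower at 48 h. By limma 0 targets fell at 1 µM, and at an unadjusted p under 0.05 it was 1 at 24 h and 0 at 48 h. Their median log2 change was 1.00 at 100 µM and 24 h, against 0.04 over all genes, and 0.48 at 1 µM, against 0.03. The list was chosen for being receptor targets, with earlier results of these data known.

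Cyp1a1 oxidises polycyclic aromatic compounds and is the receptor's most studied target. Its 24 h change was 3.83-fold at 1 µM and 5.13-fold at 100 µM, and its 48 h change 2.49-fold and 5.68-fold (limma adjusted p = 0.000365 or smaller). For Cyp1a2, the related liver P450, 1 µM gave 1.55-fold and 100 µM 2.19-fold at 24 h, while the 48 h values were 2.17-fold and 3.45-fold. For Nqo1, which reduces quinones and also answers to NRF2, the 24 h changes were 1.63-fold and 1.84-fold, with 1.38-fold and 1.71-fold at 48 h. All 3 enzymes passed at 1 µM at both times, where the main Tiparp probe set did not; the 48 h call of Cyp1a1 was lost with the groups compared fitted alone (adjusted p = 0.0529).

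Cyp1b1, a P450 of steroids and hydrocarbons, did not pass at 1 µM, with 1.24-fold at 24 h (limma adjusted p = 0.341) and 1.12-fold at 48 h (0.78). At 100 µM Cyp1b1 was 7.5-fold above vehicle at 24 h (limma adjusted p = 5.46e-14) and 3.82-fold at 48 h. Nfe2l2, which encodes NRF2, also passed at 100 µM only, where its change was 1.36-fold at 24 h and 1.37-fold at 48 h. The dim Aldh3a1, which oxidises aldehydes, passed at 24 h at both doses (2.54-fold and 5.21-fold) and not at 48 h. At 100 µM and 48 h its log2 change was 0.99, which passed after quantile normalization (adjusted p = 0.0479) and without the second 48 h vehicle array (0.0155). The 1 µM call of Aldh3a1 at 24 h was lost when any of 7 arrays was left out, with log2 changes of 0.96 to 1.38. It was also lost with the groups compared fitted alone (adjusted p = 0.12). Cyp2s1 passed in no contrast with vehicle. Gsta3, a glutathione transferase, fell 1.18-fold at 100 µM and 24 h and 1.15-fold at 48 h. The later call was lost after median centring of arrays (adjusted p = 0.156) and with the groups compared fitted alone (0.0773). It was also lost in 4 of 10 fits with 1 array left out.

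**Figure D3:**
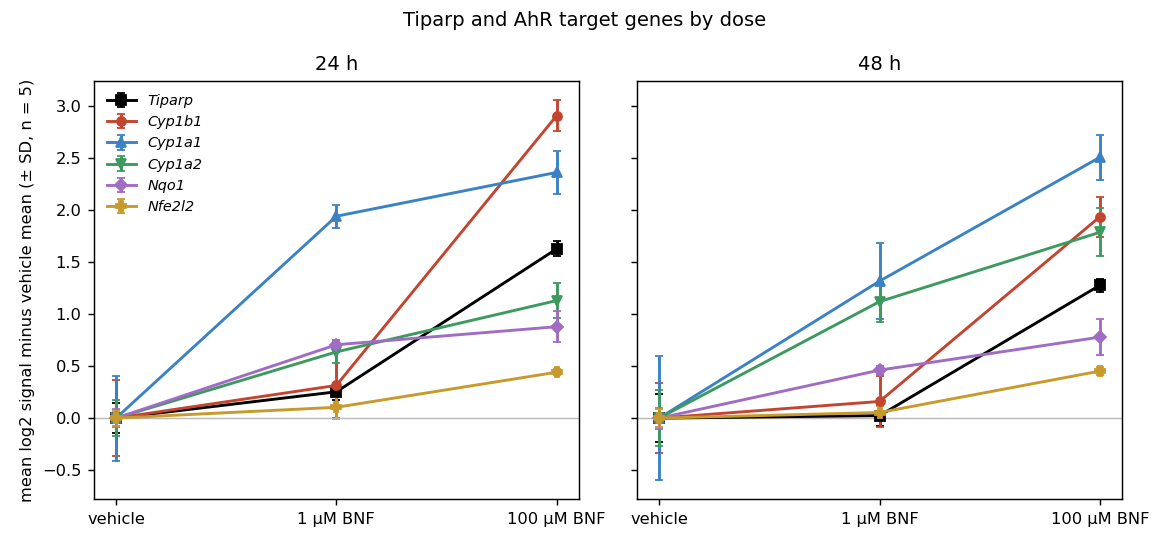
Mean log2 signal minus the vehicle mean (y axis, ± SD, n = 5) of Tiparp (main probe set) and of 5 receptor target genes, by dose at 24 h (left) and 48 h (right). Tiparp is at 0.25 and 0.02 at 1 µM and reaches 1.63 and 1.28 at 100 µM; at 1 µM Cyp1b1 is likewise at 0.31 and 0.16, and Cyp1a1 is already at 1.94 and 1.32.

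Tiparp, on its main probe set, was compared with each target within arrays. This took 16 two-sided exact permutation tests chosen after the profiles were seen, with p-values adjusted over the 16. At 1 µM Tiparp changed less than Cyp1a1, with log2 differences of -1.69 at 24 h and -1.29 at 48 h (each adjusted exact p = 0.0106). It also changed less than Cyp1a2, by differences of -0.38 and -1.10, and less than Nqo1, by -0.45 and -0.44 (adjusted exact p = 0.0106 to 0.0195). From Cyp1b1 it did not differ beyond the spread at 1 µM, with differences of -0.06 at 24 h and -0.14 at 48 h (adjusted exact p = 0.77 and 0.671). From 1 to 100 µM at 24 h, Tiparp changed more than Cyp1a1 by 0.95, than Cyp1a2 by 0.88 and than Nqo1 by 1.20, and its difference from Cyp1b1 was -1.22 (each adjusted exact p = 0.0106). In that dose step at 48 h, Tiparp changed more than Cyp1a2 by 0.59 and than Nqo1 by 0.94, and its difference from Cyp1b1 was -0.52 (each adjusted exact p = 0.0106), while from Cyp1a1 it was 0.06 (adjusted exact p = 0.77). The dimmer Tiparp probe set was not put through these tests. At 1 µM and 24 h its log2 change was 0.64, against 1.94 for Cyp1a1, 0.64 for Cyp1a2 and 0.70 for Nqo1. At 1 µM and 48 h it was 0.33, against 1.32, 1.12 and 0.46. Cyp1a1 was among the brightest probe sets, with a mean of 87 others brighter at 100 µM and 24 h. Nqo1 was about as bright at 24 h, with mean signals of 50272 at 1 µM and 56905 at 100 µM, against 44100 and 59383 for Cyp1a1. Whether the signal of either was near the top of the scale was not tested.

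The genes whose group means ran nearest to Tiparp's were found among 7107 genes above the median signal. Likeness was the mean absolute log2 difference over the 6 centred group means, whose median over the candidates was 0.61. Ceacam1, a cell adhesion protein of the hepatocyte surface, was nearest at 0.27, with 2.38-fold and 1.76-fold changes at 100 µM at 24 and 48 h at its brightest probe set. At 1 µM it rose 1.3-fold and 1.23-fold (limma adjusted p = 5.5e-06 and 0.00043). The 48 h call at 1 µM was lost after median centring (adjusted p = 0.128) and with the groups compared fitted alone (0.0504), and the other Ceacam1 probe sets did not pass there (0.244 and 0.416). Ier3, an immediate early gene, followed at 0.28, with 1.72-fold and 1.76-fold. Ugt2b1, a glucuronosyltransferase, was at 0.28 with 2.76-fold and 2.29-fold. At 1 µM its ratio to vehicle was below 1, at 0.801 (limma adjusted p = 0.102) and 0.684 (0.0114), the later call being lost with the groups compared fitted alone (0.072) or without the first array of either group (0.0536 and 0.0556). The lysosomal Rab gene Rab7b was at 0.32, and the growth factor gene Nrg1 at 0.33. Other probe sets of Nrg1 differed, from a log2 change of -0.30 to 1.77 at 100 µM and 24 h.

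Of the chaperones that hold the receptor in the cytosol, 4 were measured. Against vehicle only Ptges3, the p23 cochaperone, was called, rising 1.11-fold at 100 µM and 24 h (limma adjusted p = 0.0284). In that comparison 21.1% of all genes were called, and 10.7% were called higher. The Ptges3 call was lost after median centring (0.485), with the groups compared fitted alone (0.0651) and in 5 of 10 fits with 1 array left out. The median log2 change of the chaperones at 100 µM and 24 h was 0.12, against 0.04 over all genes. Of 7 genes of receptor protein turnover, 3 rose at 100 µM at each time (10.7% and 8.79% of all genes were called higher), and 0 fell by limma or at an unadjusted p under 0.05. Ube2l3, a ubiquitin-conjugating enzyme, rose 1.15-fold, and the proteasome subunit gene Psmd4 rose 1.13-fold, at 24 h. All 3 calls at 24 h were lost after median centring (adjusted p = 0.1 for Ube2l3, 0.274 for Psmd4 and 0.319 for Tbl3), and the other probe set of Ube2l3 changed 1.02-fold (0.921). The 48 h call of Ube2l3 was lost likewise (0.0562). Psmd1, another proteasome subunit, rose 1.28-fold at 48 h (limma adjusted p = 1.55e-05).

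Among 15 relatives of the receptor and ARNT, 1 rose and 2 fell at 100 µM and 24 h, and 2 rose and 3 fell at 48 h, where 21.1% and 17.4% of all genes were called. The 48 h count of 5 was 3 after median centring or with dim genes left out, and ran from 2 to 5 over left-out arrays. Epas1, which encodes the ARNT partner HIF-2 alpha, fell 1.4-fold at 100 µM and 24 h (limma adjusted p = 1.34e-08) and 1.19-fold at 1 µM (0.00244). Its other probe set changed 1.03-fold at 100 µM and 24 h (0.967) and was 1.41-fold higher at 1 µM and 24 h (0.573). Hif1a, the better known partner of ARNT, rose at 100 µM, by 1.22-fold at 24 h and by 1.28-fold at 48 h (limma adjusted p = 0.0104 and 0.00225); the 24 h call was lost after median centring (0.137). Npas2, a clock factor, fell 1.5-fold and 1.43-fold at 100 µM (0.00425 and 0.0129), the later call being lost without the fifth 48 h vehicle array (0.0623). The dim Bmal2 fell 4.7-fold at 100 µM and 48 h (0.0147), which was lost without the second or the third treated array (0.0579 and 0.0512).

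Of 16 genes induced by hypoxia through ARNT, 2 rose and 3 fell at 100 µM and 24 h, and 1 rose and 2 fell at 48 h, where 21.1% and 17.4% of all genes were called. The 48 h count of 3 was 6 (2 higher, 4 lower) with dim genes left out, and ran from 3 to 5 over left-out arrays. Ndrg1, a stress and differentiation gene, was up by 1.38-fold at the earlier and 1.53-fold at the later time. Bhlhe40, a clock-linked repressor gene, fell 1.34-fold and 1.44-fold, and Pdk1, a kinase that restrains pyruvate oxidation, fell 1.31-fold and 1.41-fold. Vegfa, the angiogenic factor gene, fell 1.25-fold at 24 h (limma adjusted p = 0.0141), a call lost without the fourth 24 h vehicle array (0.0509), and its other probe set changed 1.02-fold (0.895). The group's median log2 changes at 100 µM were -0.06 and -0.15.

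Of 16 genes of the ADP-ribosylation family around Tiparp, 6 fell and 0 rose by limma at 100 µM and 24 h (1 rose at an unadjusted p under 0.05). At 100 µM and 48 h 1 rose and 1 fell, where 17.4% of all genes were called. The 48 h count was 1 after median centring. Macrod1, a hydrolase that removes ADP-ribose, fell 2.29-fold at 24 h and 2.05-fold at 48 h (limma adjusted p = 0.000243 and 0.0015). Parg, which breaks down ADP-ribose chains, fell 1.27-fold (4.52e-05), Parp9 1.44-fold (0.000126) and Parp14 1.21-fold (0.002) at 24 h. At 1 µM 0 of the 16 were called by limma at either time, where 4.3% of all genes were called at 24 h and 0.809% at 48 h. At an unadjusted p under 0.05 it was 2 of the 16 at 24 h and 3 at 48 h. Tiparp is not counted among the 16. The group's median log2 change at 100 µM and 24 h was -0.06, against 0.04 over all genes, where 10.4% of all genes were called lower.

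The 18 coregulators of the receptor and ARNT had 1 rise and 3 falls at 100 µM at each time, against 21.1% and 17.4% of all genes called. At 1 µM they had 0 calls by limma, against 4.3% of all genes at 24 h and 0.809% at 48 h. An unadjusted p under 0.05 was reached there by 3 at 24 h and 2 at 48 h. Hdac5, a histone deacetylase, fell 1.58-fold at 24 h and 1.36-fold at 48 h (limma adjusted p = 2.76e-06 and 0.000731). Its dimmer probe set was 1.3-fold lower at 24 h (0.61) and 1.12-fold higher at 48 h (0.879). Nrip1, a corepressor of nuclear receptors, fell 1.31-fold and 1.27-fold, and the coactivator gene Ncoa4 fell 1.15-fold and 1.11-fold. Ankra2 rose 1.22-fold at 24 h. The later Ncoa4 call was lost after median centring (adjusted p = 0.365), without the trend (0.0572) and with the groups compared fitted alone (0.121). It was also lost in 6 of 10 fits with 1 array left out. The 48 h count of 4 calls was 2, with 0 rises by limma, after median centring or without the trend, and ran from 2 to 4 over left-out arrays.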

How the data were processed

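The authors deposited 1 signal intensity for each probe set and array, on a linear scale, from MAS5 per the submitters' processing notes. Its version and background settings are not stated by the labels, and detection calls were not used here. The arrays share 1 trimmed mean (2% trimmed at each end), so a change common to most genes cannot be seen. Of 31099 probe sets, 57 controls were left out; 20826 had 1 symbol, 436 several and 9780 none in the platform annotation. Of the first, 20758 matched a gene number of the GRCr8 gene table. The brightest 1-symbol probe set stood for a gene, giving 14217 genes. Other probe sets of a gene were read from a separate limma fit of all probe sets except controls, with p adjusted over those. No column belonged to another sample (0 columns).

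Log2 intensity with no added constant was fitted with limma 3.58.1 in R 4.3.3, with 1 mean per group, empirical Bayes with a trend and 24 residual degrees of freedom, tested on simulated data. Groups came from the titles; replicate numbers follow sample order and only name an array, and the labels name no batch. The number of arrays limits the precision.

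All members were named. Up to 4 called genes of each list were named by smallest adjusted p, target enzymes all, and the 5 genes most like each called member. Members and lists were chosen with earlier results of these data known. Alternatives were median centring, quantile normalization, 50 units added, dim genes left out, each pair of groups alone, other probe sets, no trend, array weights, exact permutation and each array left out, and, chosen after seeing the data, a block of sets of sample numbers.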

Additional observations from a re-analysis of the deposited data

Results flagged for a closer look

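In 36 groups of 5 arrays (6 probe sets of the members in 6 groups), 3 had an array far from the others, by the gap to the nearest array as a share of the group's range on log2 signal (above 0.71); chance gives about 1 in 20. The first 1 µM array at 48 h was low for Ahr, at 284 against 381 for the next, a share of 0.783. The fifth 1 µM array at 24 h was high for Arnt, at 302 against 75.6, a share of 0.72. The third 100 µM array at 48 h was low for Arnt, at 32.7 against 165, a share of 0.835. On the linear scale 4 groups had such an array: those of Ahr and of Arnt at 1 µM, with shares of 0.75 and 0.878, and for Ahrr the 24 h vehicle group (0.823) and the 48 h group of 100 µM (0.72).

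The effect of 100 µM differed between the times for a pair of target enzymes. For Cyp1a2 it was larger at 48 h by 0.66 log2 units (limma adjusted p = 0.0423). For Cyp1b1 it was smaller at 48 h, by a difference of -0.97 (limma adjusted p = 0.0387). Both calls were lost after median centring of arrays (adjusted p = 0.0714 and 0.0823) and without the mean-variance trend (0.0936 and 0.0703). Each was also lost in 14 of 20 limma fits with 1 array left out (adjusted p up to 0.0946 and 0.078).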

How the results depend on the processing

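All Tiparp calls at 100 µM, against vehicle and against 1 µM, kept their direction and side of the threshold under every alternative run, from log2 1.57 to 1.67 at 24 h and 1.22 to 1.37 at 48 h against vehicle when 1 array was left out. The 24 h change of Tiparp at 1 µM passed after quantile normalization (0.27), with genes below the median signal left out (0.25), on the other probe set (0.64), and without the fifth vehicle array; it ran from 0.20 to 0.29 over the left-out arrays. Its fall with time in vehicle (-0.48) had an exact permutation p of 0.0159, above the 0.00794 that is the smallest possible, and did not pass once 36 such tests were allowed for. At 1 µM and 48 h Tiparp turned to -0.056 after median centring and ran from -0.029 to 0.12 over left-out arrays.

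No call of Ahr, Arnt or Ahrr was gained or lost in 225, 214 and 214 alternative values; the values that changed sign were all uncalled. For Ahr these were, at 1 µM and 48 h, -0.020 after centring, -0.024 after quantile normalization and -0.15 on the other probe set. That probe set also gave -0.17 for 100 against 1 µM at 24 h, 0.11 and 0.15 for time in vehicle and at 100 µM, and -0.057 and 0.043 for the differences of the 1 and 100 µM effects between times. Arnt for 100 against 1 µM at 48 h gave 0.11 after centring, 0.087 after quantile normalization and 0.068 with 50 added, and Ahrr over time at 1 µM gave 0.0047 with 50 added. At 1 µM and 48 h the targets Cyp2s1 (-0.0071 and -0.0047, centring and quantile), Gsta3 (0.016, quantile) and Nfe2l2 (-0.026, centring) turned. Over left-out arrays, Ahr ran from -0.27 to 0.031 at 1 µM and 24 h, -0.14 to 0.16 for the doses at 24 h, and -0.11 to 0.20 over time at 1 µM. Ahrr ran from -0.15 to 0.72 at 1 µM and 48 h, -0.29 to 0.11 for the doses at 24 h, and -0.43 to 0.36 over time at 1 µM. Arnt ran from -0.19 to 0.51 for the doses at 48 h, -0.68 to 0.094 over time in vehicle, -0.65 to 0.046 over time at 100 µM, and -0.55 to 0.37 for the 100 µM effect between times. Gsta3 at 1 µM and 48 h ran from -0.059 to 0.023. The cause of these turns was not tested.

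Median centring moved the count of genes called from 612 to 395 at 1 µM and 24 h, 115 to 66 at 1 µM and 48 h, 1097 to 612 for the doses at 24 h, 2450 to 1633 and 1926 to 1238 for time in vehicle and at 1 µM, and 13 to 0 and 112 to 47 for the effects between times. It moved the share of calls that were higher from 44.3% to 12.9% and 35.7% to 12.1% at 1 µM, 50.8% to 30.4% at 100 µM and 24 h, 47.1% to 76.2% for the doses at 48 h, and 51.8% to 72.5% for time at 100 µM, and the median of all genes by 0.11 for the doses at 48 h. The 1 µM count at 48 h was 30 with its groups alone and 46 to 153 over left-out arrays. For 1 µM between times, counts were 20 after quantile normalization, 4 without the trend and 25 with array weights, and 174 for 100 µM with dim genes left out. The titles number the samples, and each of 5 sets of 6 consecutive numbers holds 1 array of every group; no label says what a set is. The deviations of arrays of 1 set, in different groups, had a median r of 0.0064 (-0.038 to 0.11 over 75 pairs). Between arrays of different sets and groups the median r was -0.00089 (-0.098 to 0.11 over 300 pairs). Of 30 arrays, 9 were nearest their own set, and the number that chance would give was not computed. A replicate block of these sets, chosen after seeing the data, changed no member's call (Tiparp at 1 µM and 24 h 0.25, adjusted p = 0.057) and moved the genes called at 100 µM from 3000 to 3050 at 24 h and 2475 to 2572 at 48 h. It moved the 48 h counts of hypoxia genes from 3 to 5 and of ADP-ribosylation genes from 2 to 1. The dim Arnt and Ahrr signals limit what can be read from them.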
